A study of Mus musculus with 3 samples.

Results

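The heat shock chaperones and co-chaperones described here are 10 genes, Hspa1a, Hspa1b, Hspa8, Hsph1, Dnajb1, Hsp90aa1, Hspb1, Hspd1, Hspe1 and Bag3, of 23361 genes in the files. They were taken by gene symbol, and the list was chosen by the FPKM of the same 3 libraries, so their levels and changes are given as a description without a test. All samples are liver of C57BL/6J mice labelled male and 8 to 10 weeks old, which were fasted before surgery and had a midline laparotomy under chloral hydrate. The Sham group had no occlusion and was kept in cages for 90 min. In the warm ischemia (WI) group, a clamp closed the vessels and bile duct to the left and median lobes for 90 min, and liver was then taken. In the ischemia followed by reperfusion (IR) group, the same clamping was followed by 2 h of reperfusion in cages without further anesthetic. A heating pad and lamp held body temperature during anesthesia. The clamp leaves the other lobes perfused, and it is not stated which lobes were sampled. No sham group was matched to the time of the IR group. Each group of the study had 6 mice, and it is not stated how many of them contributed RNA to its library. There was 1 library per group and no replicate, so the 95% bounds printed with each FPKM (fragment counts scaled by transcript length and by library size) reflect the model of Cuffdiff and not variation between mice.

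Heat shock chaperones bind unfolded or partly folded proteins and help them to refold or to be degraded. HSP70 proteins work in cycles that J-domain proteins start and nucleotide exchange factors such as HSP110 and BAG proteins end, HSP90 acts on later folding steps, and small heat shock proteins hold unfolded proteins without ATP. The inducible genes among them are transcribed when the heat shock factor HSF1 forms trimers and binds repeated GAA units in alternating orientation, and in liver they are known to respond to heat, toxins and lack of oxygen.

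The sequences before the start sites are shown for the genes in which a pair of facing units was found upstream within 250 bases. Heat shock factors bind repeats of such units, and a pair alone is only a part of such a repeat. Hspd1 shares its stretch with Hspe1. In the stretches, written 5′ to 3′ on the strand of the gene from RefSeq (GRCm38.p6, the same build as mm10), capitals mark each pair, GAANNTTC or TTCNNGAA. The stretches of Hspa1a (chr17:34972197-34972296, minus strand), Hspa1b (chr17:34959279-34959378, minus strand) and Hspb1 (chr5:135887769-135887868, plus strand) are 100 bases long. Those of Hspe1 (chr1:55088053-55088082, plus strand) and Hsph1 (chr5:149636351-149636380, minus strand) are 30 bases long.
Hspa1a: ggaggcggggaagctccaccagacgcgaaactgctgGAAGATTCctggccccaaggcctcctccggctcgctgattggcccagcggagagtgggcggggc
Hspa1b: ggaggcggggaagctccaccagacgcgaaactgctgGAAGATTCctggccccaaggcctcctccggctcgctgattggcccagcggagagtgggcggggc
Hspb1: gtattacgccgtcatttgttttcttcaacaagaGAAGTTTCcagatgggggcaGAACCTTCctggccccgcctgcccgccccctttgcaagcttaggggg
Hspe1: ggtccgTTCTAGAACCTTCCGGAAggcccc
Hsph1: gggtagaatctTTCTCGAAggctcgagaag

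The stretches of Hspa1a and Hspa1b were identical, each with 1 pair that began 104 bases before the start site. Hspb1 held 2 separate pairs, 117 and 97 bases before its start site. In Hspe1, 3 pairs overlapped in an unbroken run of alternating units that began 89 bases before the start site. Hspd1 lies head to head with Hspe1. In the files 215 bases lie between them, whereas RefSeq ends Hspd1 at 55088243, past the start of Hspe1 at 55088148, so that the genes overlap. The run in the second window of Hspd1 was the same place in the genome, 144 bases before that start site, and the window of its first start site held no pair. Hsph1 had 1 pair 33 bases before the first of its start sites and 2 overlapping pairs past it, and Bag3 had a pair 42 bases past its start site. Dnajb1 had no pair in either of its windows. Hspa8 and Hsp90aa1 were not matched in the promoter sequences, so 8 of the 10 genes were searched, each over windows of 300 bases (250 before and 50 after a start site). Each pair is its own reverse complement, so both strands were covered, and overlapping pairs were counted separately. A pair was found in 7 of these 8 genes (87.5%) and in 17.0% of all 27025 genes with a window. An unbroken run of 3 alternating units was found in 3 of the 8 (Hsph1, Hspd1 and Hspe1) and in 0.662% of all genes. The members are not independent of each other here, since Hspd1 and Hspe1 share 1 place and the 250 bases before the start sites of Hspa1a and Hspa1b were 98.8% identical. A match describes these letters only. In the map of pairs, those upstream of a start site began between 33 and 144 bases before it.

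**Figure D1:**
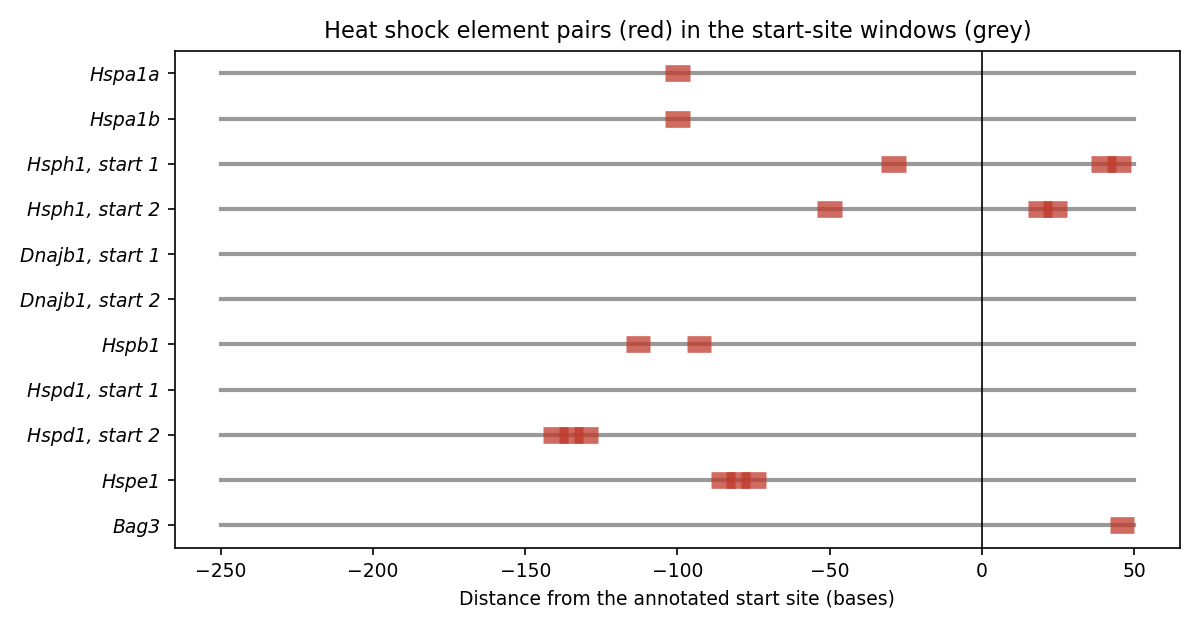
Positions of GAANNTTC and TTCNNGAA pairs in the promoter windows of the chaperone genes, as distance from the start site in bases (x axis, 250 before to 50 after) with 1 row per window and marks for pairs. Hspa1a and Hspa1b have a pair at the same distance, 104 bases before the start site, and the Dnajb1 windows have none.

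Several properties of the libraries bear on the comparisons. All are labelled male, but Xist, an RNA of the inactive X chromosome, had 18.9 FPKM in Sham, 20.1 in WI and 1.29 in IR, while the Y-linked gene Eif2s3y was listed at 0 in Sham and WI and had 13.2 FPKM in IR. The Sham and WI libraries therefore go against their label, and with 1 library per group a difference linked to sex and a difference linked to reperfusion cannot be told apart in any comparison with IR. WI and Sham have the same pattern of these genes. The FPKM of all genes summed to 475754 in Sham, 487912 in WI and 712423 in IR. Sums of marker FPKM are therefore not on a common scale across libraries. The Cuffdiff status HIDATA, for a locus with too many fragments, was given to 1, 1 and 7 genes in these libraries. Its effect on the totals and on rescaled values was not tested. Markers of hepatocytes were abundant in all libraries, over the 7 of 8 with a usable status (albumin was not among them). Their summed FPKM was 19679.6 in Sham, 14723 in WI and 19764 in IR. The 10 neutrophil markers in the files summed to 26.0, 19.6 and 462, with 6 at least 2-fold higher in IR than in WI, while Mpo was listed at 0 in IR and Elane at 0 in WI. The 9 Kupffer cell and macrophage markers summed to 513, 258 and 168, with 7 at least 2-fold lower in IR than in Sham. The 5 erythroid markers summed to 751, 518 and 1976, and all 5 were at least 2-fold higher in IR than in WI. Sums for sinusoidal endothelium were 130.5, 92.9 and 114, and for stellate cells 144.6, 103 and 106. From Sham to IR, 1 of 7 endothelial markers was at least 2-fold higher (Lyve1) and 1 was lower (Kdr). Most of the stellate cell sum was Dcn, at 129.6, 91.2 and 95.5. Sums for cholangiocytes were 2.48, 3.29 and 6.92, and for T and B cells 5.74, 4.56 and 2.09. Of 6 skeletal muscle markers, 4 were at 0 in all libraries. The part of these cells in the chaperone values was not tested, and in bulk tissue fewer cells of a type and less RNA per cell cannot be told apart. Taken from the bounds, the coefficient of variation of a gene had a median of 26.0% in every library.

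The 10 genes spanned a wide range of FPKM in the Sham liver. Hspa8, Hspe1 and Hspd1 had 477, 187 and 179 FPKM in Sham, Hsp90aa1 had 28.2, and the other 6 lay between 0.425 and 7.77. The ratio of the highest to the lowest member was 1123 in Sham, 136 in WI and 30.6 in IR. In Sham and WI the bounds of Hspa8 and Hspe1, and of Hspe1 and Hspd1, overlapped, and Hsp90aa1 stood apart from its neighbours on both sides. In IR the order from the highest FPKM was Hspa8, Hspe1, Hspa1b, Hspd1, Hsp90aa1, Hspb1, Hspa1a, Dnajb1, Hsph1 and Bag3, and every neighbour in this order overlapped the next. The summed FPKM of the 10 genes was 899.9 in Sham, 1014 in WI and 3696 in IR, which is 0.189%, 0.208% and 0.519% of the FPKM of all genes. Albumin was listed at 0 in every library, without a usable status in all of them, so these totals leave it out. More genes had the status HIDATA in IR than in Sham or WI, and its effect on these shares was not tested.

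**Figure D2:**
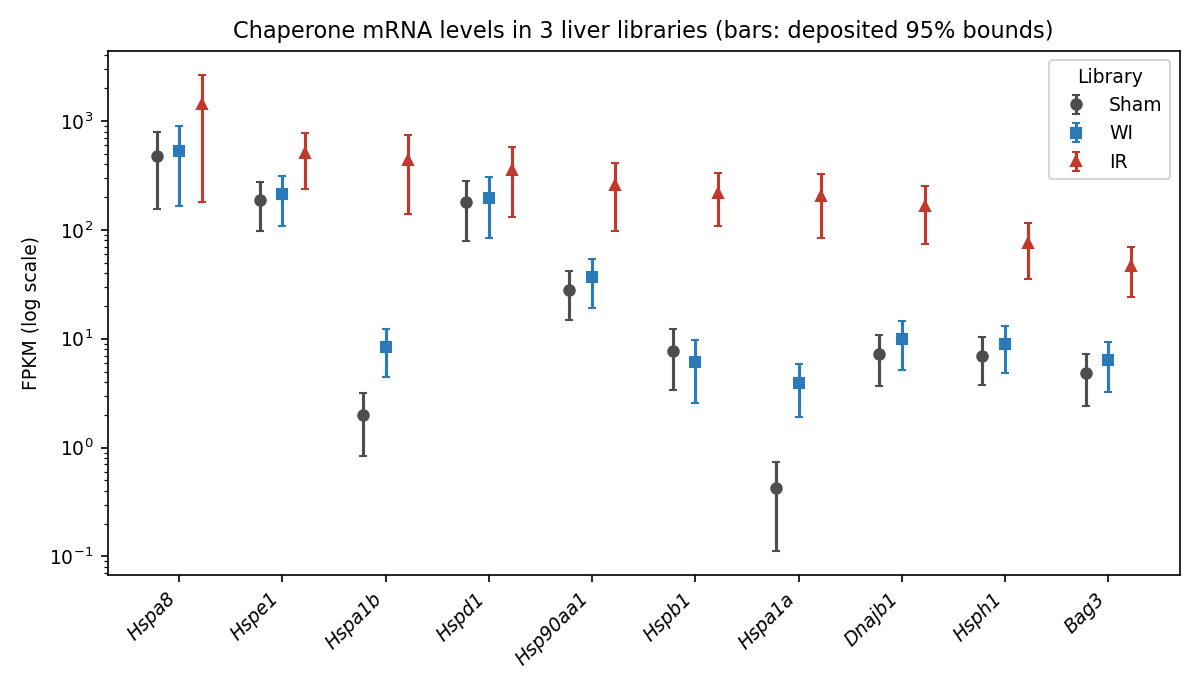
FPKM of the 10 chaperone genes (log axis) in the Sham, WI and IR libraries, with points for the FPKM and bars for the 95% bounds of Cuffdiff. Members with low FPKM in Sham beside the most abundant ones, such as Hspa1a at 0.425 and Hspb1 at 7.77, reach 206 and 220.04 in IR. Hspa8 goes from 477 to 1424 with bounds that overlap.

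The comparison of WI with Sham sets liver taken after 90 min of clamping, before reperfusion, beside sham-operated liver. Of the 10 genes, 2 were at least 2-fold higher in WI, Hspa1a and Hspa1b, and they were also the 2 with bounds that did not overlap. Changes are differences of log2(FPKM + 1), which understate the change of low genes, and at least 2-fold means a difference of 1 on this scale. All 10 genes passed the filter of at least 1 FPKM in at least 1 sample, as did 10792 genes in all. Hspa1a was below 1 in Sham and passed through the groups in which it was higher. Of all genes that passed, 0.751% were at least 2-fold higher in WI, 1.1% at least 2-fold lower, and 0.195% higher with bounds apart. The median change of the 10 genes was 0.33, beside 0.02 over all genes. The members were selected on these contrasts, so nothing is read from the counts. Among the 8 other members the changes ranged from -0.29 (Hspb1) to 0.40 (Dnajb1), with overlapping bounds in every case.

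The comparison of IR with WI sets liver after clamping and 2 h of reperfusion beside liver taken at the end of clamping. The libraries also differ in the pattern of sex-linked genes, in time since surgery and in recovery from anesthetic. The part of reperfusion in the changes cannot be told apart from these. Here 9 of the 10 genes were at least 2-fold higher in IR, beside 5.78% of all genes, and 1.43% of all genes were at least 2-fold lower. The exception was Hspd1, at 0.86, and the member just past the threshold was Hspe1, at 1.26. Bounds did not overlap for 7 of the 10, beside 3.22% of all genes, and they overlapped for Hspa8, Hspd1 and Hspe1. The median change was 2.86 for the 10 genes and 0.03 for all genes. From Sham to IR the counts were the same, 9 and 7 of 10, beside 5.35% of all genes at least 2-fold higher, 2.15% at least 2-fold lower and 2.7% higher with bounds apart, with medians of 3.20 and 0.05. Hspd1 was just outside the threshold there too, at 0.98. The 3 comparisons share libraries. Of all genes, 624 were at least 2-fold higher and 154 lower in IR than in WI, and after rescaling FPKM to a common sum per sample (TPM) 322 were higher and 833 lower. From Sham to IR the split was 577 higher and 232 lower as deposited and 269 higher and 1109 lower as TPM. On the TPM scale 7 of the 10 genes were at least 2-fold higher in IR than in WI, and Hspa8 and Hspe1 were below the threshold, at 0.88 and 0.72. From Sham to IR it was also 7 of 10, with Hspa8 at 0.99 and Hspe1 at 0.86.

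**Figure D3:**
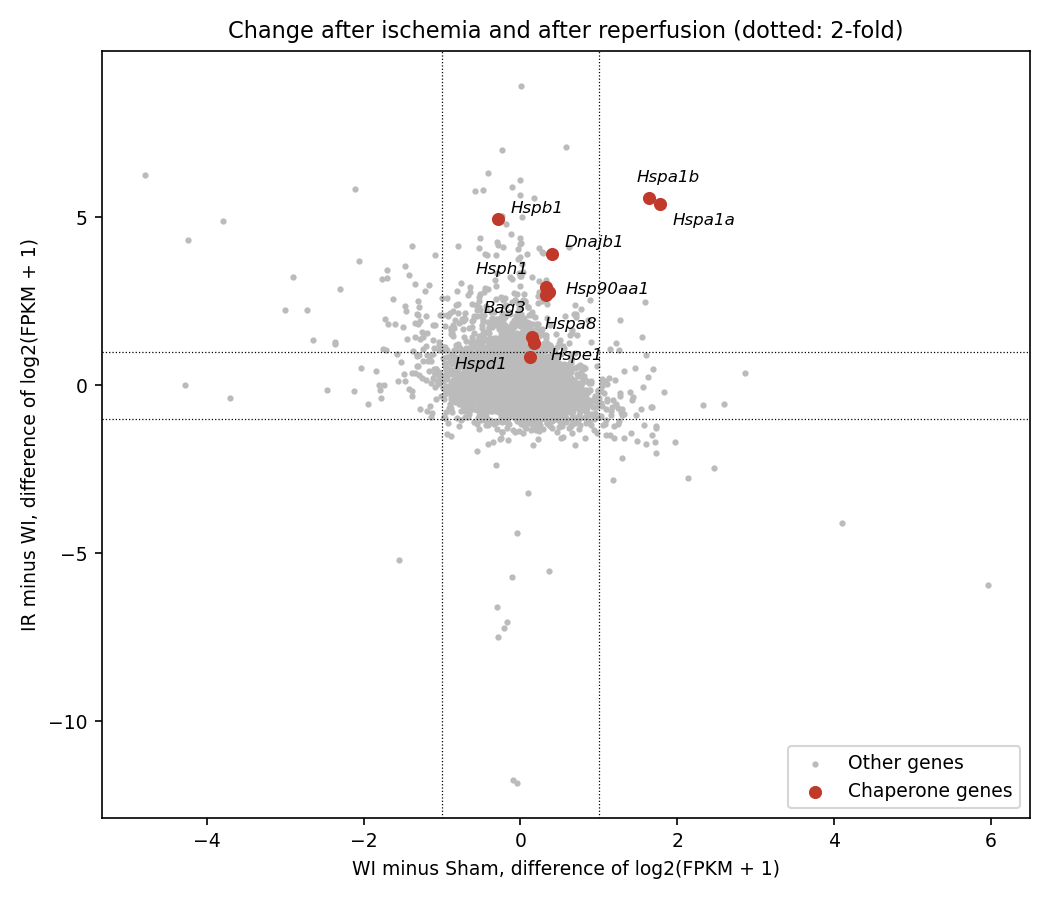
Change from Sham to WI (x axis) against change from WI to IR (y axis), both as differences of log2(FPKM + 1), for the genes that passed the filter (grey) and the 10 chaperone genes (labelled). Hspa1a and Hspa1b lie to the right and high, at 1.78 and 1.64 on the x axis, whereas the 8 others lie between -0.29 and 0.40 on it.

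The inducible HSP70 genes Hspa1a and Hspa1b encode nearly the same cytosolic chaperone. Hspa1a (chr17:34969359-34972156) had 0.425 FPKM in Sham (bounds 0.113 to 0.736), 3.89 in WI (1.90 to 5.88) and 206 in IR (83.95 to 329). Hspa1b (chr17:34956429-34959238) had 1.99 FPKM in Sham (0.837 to 3.15), 8.36 in WI (4.42 to 12.3) and 442 in IR (140.4 to 743). For both genes Sham was lowest and IR highest, and no bounds overlapped between any 2 samples. The FPKM of Hspa1a was 9.15-fold higher in WI than in Sham and 53.1-fold higher in IR than in WI, and that of Hspa1b was 4.19-fold and 52.8-fold higher. By the closest bounds, the ratio of WI to Sham was 2.58 for Hspa1a and 1.40 for Hspa1b, and that of IR to WI was 14.3 and 11.4. Among 10792 genes the 2 had the 4th and 3rd largest changes from Sham to IR, 7.18 for Hspa1a and 7.21 for Hspa1b. Their coding sequences were 99.4% identical, with a longest identical run of 638 bases, while the sequences after the coding sequence were 47.7% identical. Cuffdiff was run with default settings, under which a read that maps to several places is divided evenly among them, so the split between Hspa1a and Hspa1b is uncertain and their sum is given too. The sum was 2.42 FPKM in Sham, 12.2 in WI and 648 in IR, or 5.06-fold higher in WI than in Sham and 52.9-fold higher in IR than in WI. The ratio of Hspa1b to Hspa1a was 4.70 in Sham and 2.15 and 2.14 in WI and IR.

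The constitutive cytosolic HSP70 is Hspa8 (chr9:40801273-40805199), which also takes part in clathrin uncoating. It had 477 FPKM in Sham (156 to 797), 528 in WI (167 to 889.7) and 1424 in IR (179.6 to 2668), and the bounds overlapped between all samples. IR was highest, 2.70-fold above WI. Hspa8 was the most abundant member in every sample, but its share of the 10 genes' summed FPKM was 53.0% in Sham, 52.1% in WI and 38.5% in IR. Together Hspa1a and Hspa1b made up 0.505% of the FPKM of Hspa1a, Hspa1b and Hspa8 in Sham, 2.27% in WI and 31.3% in IR. The plot of shares sets these values beside those of Hsp90aa1.

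**Figure D4:**
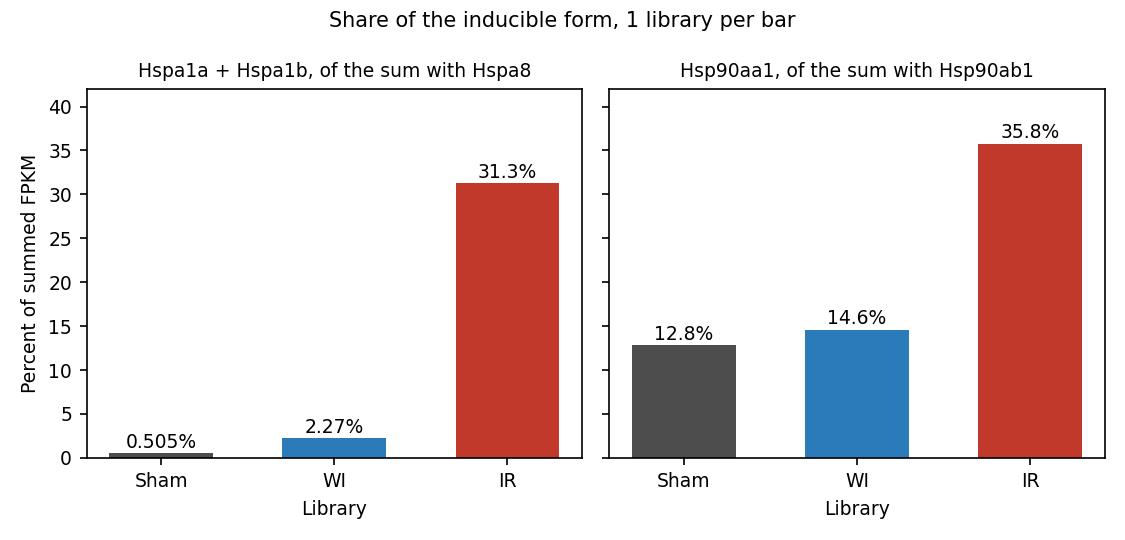
Share of the inducible gene or genes in a pair of related chaperones, in percent of summed FPKM, in the 3 libraries. Hspa1a and Hspa1b go from 0.505% of the FPKM that they share with Hspa8 in Sham to 31.3% in IR, and Hsp90aa1 from 12.8% of the FPKM that it shares with Hsp90ab1 to 35.8%.

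Hsph1 (chr5:149616845-149636315), an HSP110 that exchanges the nucleotide of HSP70, had 7.01 FPKM in Sham (3.73 to 10.3), 9.04 in WI (4.85 to 13.2) and 76.1 in IR (35.6 to 117). Bag3 (chr7:128523583-128546979), a nucleotide exchange factor that takes HSP70 clients to autophagy, had 4.84 FPKM in Sham (2.40 to 7.27), 6.33 in WI (3.26 to 9.40) and 46.6 in IR (23.99 to 69.2). In both, Sham and WI overlapped and IR stood apart above them. IR was 8.42-fold higher than WI for Hsph1 and 7.36-fold for Bag3.

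Dnajb1 (chr8:83608175-83611903), a J-domain protein that delivers clients to HSP70, had 7.23 FPKM in Sham (3.70 to 10.8), 9.87 in WI (5.20 to 14.5) and 164 in IR (73.6 to 255). Sham and WI overlapped, and IR was 16.6-fold higher than WI and stood apart from both. The ratio of Hspa8 to Dnajb1 was 66.0 in Sham, 53.5 in WI and 8.67 in IR.

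Hsp90aa1 (chr12:110691036-110696395), the inducible cytosolic HSP90, had 28.2 FPKM in Sham (14.9 to 41.6), 36.7 in WI (19.1 to 54.2) and 256 in IR (96.99 to 415). Sham and WI overlapped, and IR was 6.98-fold higher than WI and stood apart. Its constitutive relative Hsp90ab1 had 192 FPKM in Sham, 214 in WI and 459 in IR, with overlapping bounds. Hsp90aa1 held 12.8% of the FPKM of the pair in Sham, 14.6% in WI and 35.8% in IR.

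Hspb1 (chr5:135887919-135889563) encodes a small heat shock protein that forms large oligomers. It had 7.77 FPKM in Sham (3.36 to 12.2), 6.17 in WI (2.56 to 9.79) and 220.04 in IR (109.5 to 331). It was the only member with a lower value in WI than in Sham, with overlapping bounds, and IR was 35.7-fold higher than WI and stood apart. Its change from WI to IR, 4.95, was the 17th largest among 10792 genes.

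Hspd1 (chr1:55077834-55087932) and Hspe1 (chr1:55088148-55091317) encode HSP60 and HSP10, the mitochondrial chaperonin and its co-chaperonin. Hspd1 had 179 FPKM in Sham (78.5 to 279), 194 in WI (84.3 to 304) and 352 in IR (132 to 573). Hspe1 had 187 FPKM in Sham (97.3 to 276), 212 in WI (109 to 314) and 509 in IR (236 to 782). IR had the highest value in both, 1.81-fold and 2.41-fold above WI, but bounds overlapped between all samples. The ratio of Hspe1 to Hspd1 was 1.05 in Sham, 1.09 in WI and 1.44 in IR.

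Over the whole course from Sham to IR, the ratio of FPKM ran from 1.97 for Hspd1 to 486 for Hspa1a. Between them lay Hspe1 at 2.72, Hspa8 at 2.99, Hsp90aa1 at 9.06, Bag3 at 9.64, Hsph1 at 10.9, Dnajb1 at 22.7, Hspb1 at 28.3 and Hspa1b at 222. The 3 genes with the smallest ratios were the 3 most abundant in Sham, and Hspa1a and Hspa1b, with the largest ratios, were the 2 least abundant. The log2 changes from Sham to IR had half-widths, combined from the bounds of both samples, of 0.91 for Hspa1a, 1.13 for Hspa1b, 1.02 for Hspb1 and 1.59 for Hspa8. For Hspa8 the half-width was as large as the change, 1.58, and for Hspd1 it was larger, 1.21 beside 0.98.

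The other genes of the families were counted from lists that overlap each other, without the 10 members. Of 133 in the files, 116 passed the filter, of which 14 were at least 2-fold higher and 0 lower in IR than in WI, beside 5.78% and 1.43% of all genes. Of the 116, 5 were higher with bounds apart, beside 3.22% of all genes, and the median change was 0.20. On the TPM scale, where the median of all genes was -0.41, 5 of the 116 were at least 2-fold higher and 6 lower, with a median of -0.32. Of all 10792 genes, 322 (2.98%) were at least 2-fold higher and 833 lower on that scale. The counts per list below in IR against WI stand beside the same values for all genes. The 5 were Hspb8 and 4 of the genes inducible by heat shock, and every other call in IR against WI named for these lists was lost on that scale. With Hspa1a, Hspa1b, Hspa8 and Hsph1 set aside, 0 of 8 HSP70 and HSP110 genes were at least 2-fold higher in IR than in WI (median 0.19), among them the endoplasmic reticulum HSP70 Hspa5 at 151, 209 and 372 FPKM in Sham, WI and IR and the mitochondrial Hspa9 at 147.5, 166 and 156. Among 3 HSP90 genes besides Hsp90aa1, only Hsp90ab1 was (1.10), and 0 of 3 on the TPM scale, while Hsp90b1, the HSP90 of the endoplasmic reticulum, had 210.5, 272 and 211 FPKM. Of 36 DNAJ genes besides Dnajb1, 2 were, Dnajb9 (35.5, 39.4 and 89.9 FPKM) and Dnaja1 (44.7, 43.9 and 90.03 FPKM), with 17 of 36 higher in value and a median of -0.03. On the TPM scale 0 of the 36 were at least 2-fold higher and 4 lower, 5 were higher in value and the median was -0.49. Of 3 small heat shock protein genes 1 was, Hspb8, a partner of Bag3, with 82.4 FPKM in Sham, 77.7 in WI and 304 in IR and bounds apart from WI, and 1 of 3 also on the TPM scale. In the BAG family 0 of 5 others were.

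Among 19 co-chaperones of HSP70 and HSP90, 1 was at least 2-fold higher in IR than in WI and at least 2-fold lower in WI than in Sham, Fkbp5, a glucocorticoid-induced HSP90 co-chaperone with 72.4 FPKM in Sham, 13.2 in WI and 32.2 in IR. On the TPM scale 0 of the 19 were at least 2-fold higher in IR than in WI, and 1 was still at least 2-fold lower in WI than in Sham. Stip1, which links HSP70 to HSP90, had 15.3, 20.8 and 26.7 FPKM. All 8 CCT chaperonin genes and all 5 prefoldin genes had higher values in IR than in WI, 0 of them by 2-fold, with medians of 0.32 and 0.38, but on the TPM scale 2 of 8 and 0 of 5 were higher. Tcp1, a CCT subunit, had 30.6, 29.3 and 34.01 FPKM. Of 9 mitochondrial chaperones and proteases besides Hspd1 and Hspe1, 1 was at least 2-fold higher in IR than in WI, the protease chaperone Clpx with 30.6, 21.1 and 50.6 FPKM, and 0 of 9 on the TPM scale.

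Of 17 chaperones of the endoplasmic reticulum, 16 had higher values in WI than in Sham, with a median of 0.47 beside 0.02 for all genes and the same 16 of 17 on the TPM scale, but only Sdf2l1 passed 2-fold (9.36 FPKM in Sham, 24.4 in WI and 13.4 in IR). From WI to IR 7 of 17 had higher values, with a median of -0.11, and 1, Dnajb9, passed 2-fold, whereas on the TPM scale 3 of 17 had higher values, with a median of -0.65, and 0 were at least 2-fold higher and 3 lower. Against the Sham sample 3 of the 17 were at least 2-fold higher in IR, beside 5.35% of all genes. These were Dnajb9 (1.32), Hspa5 (1.30) and, named after its values were seen, Manf (1.28). On the TPM scale 0 of the 17 were at least 2-fold higher and 1 lower in IR than in Sham, with 6 higher in value. Of all 10792 genes, 269 were at least 2-fold higher and 1109 lower there. Bounds were apart for 0 of the 17 in any of the 3 comparisons. Over all genes, 0.195% were higher with bounds apart from Sham to WI, 3.22% from WI to IR and 2.7% from Sham to IR. At such shares nothing is read from 0 of 17.

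Hsf1 and Hsf2 encode heat shock factors. Hsf1 had 4.29 FPKM in Sham, 4.28 in WI and 5.06 in IR, and Hsf2 6.17, 7.22 and 5.57, with overlapping bounds. In their list 1 of 5 was at least 2-fold higher in IR than in WI, Hspbap1, named for its association with HSPB1, with 0.451, 0.330 and 1.70 FPKM, and 0 of 5 on the TPM scale. Hspbap1 passed the filter only through IR, and its change of 1.02 was just past the threshold. Among 9 other genes known to be inducible by heat shock, 7 were at least 2-fold higher in IR than in WI (4 on the TPM scale), with a median of 1.37. The largest were the transcription factor Atf3 (8.72, 5.76 and 114 FPKM), the heme oxygenase Hmox1 (22.6, 18.1 and 279.8), the autophagy receptor Sqstm1 (110.4, 122 and 535), Ier5 (1.29, 1.28 and 8.59) and the ubiquitin gene Ubb (388, 345 and 895). In the plot of families, Hspd1 at 0.86 lies to the left of 1 gene of its list, Clpx at 1.22. The other members lie to the right of all non-members of their lists. Because the members were chosen on these same libraries, nothing is read from this order.

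**Figure D5:**
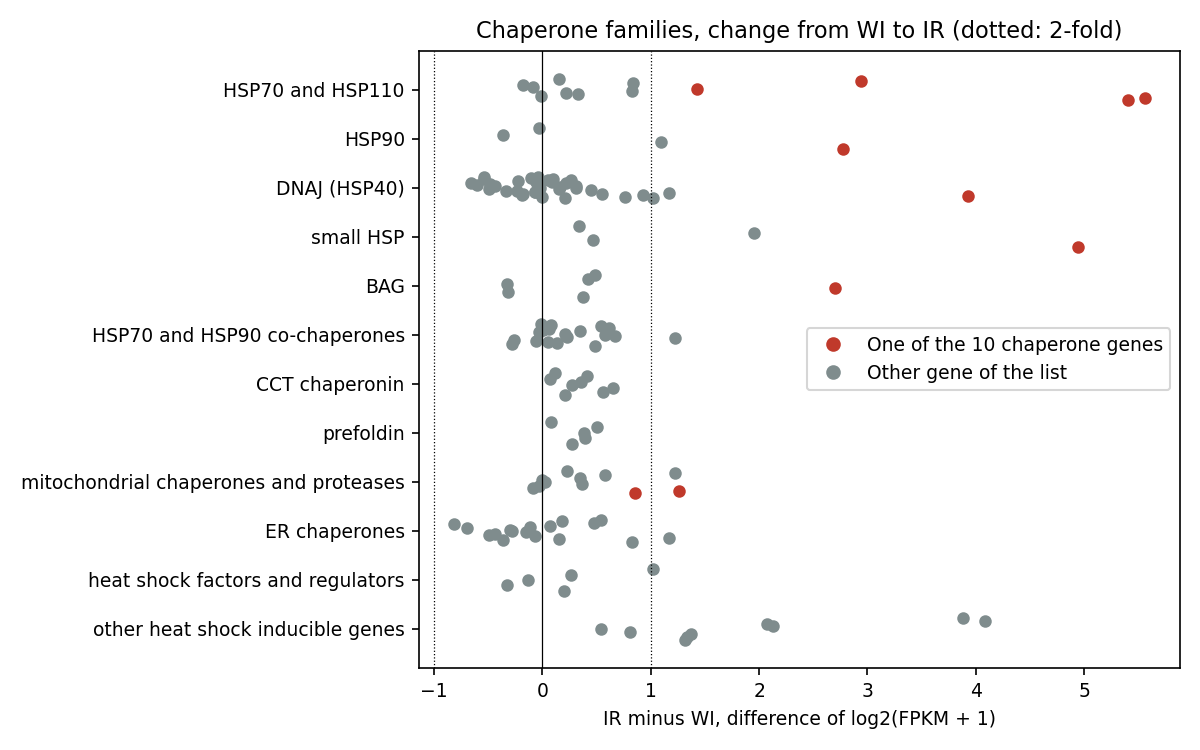
Change from WI to IR as the difference of log2(FPKM + 1) (x axis) for each gene of 12 chaperone lists (rows), with the 10 chaperone genes in red and the other genes of the list in grey. The members of the HSP70, HSP90, DNAJ, small HSP and BAG lists lie to the right of every other gene of their list, from Hspa8 at 1.43 to Hspa1b at 5.56. The members were chosen on the FPKM of these same libraries.

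Genes with changes most like the members were sought by the Euclidean distance over the changes from Sham to WI and from WI to IR, that is over 3 libraries, and it describes likeness only. Nearest to the median of the members were Thbs1, Tubb6, Plscr1, Cyp7b1 and Rnd1, at distances of 0.0460 to 0.129. Thbs1 had 0.269 FPKM in Sham, 0.612 in WI and 11.0 in IR. It passed the filter only through IR, and its place near the members depends on the added 1. Nearest to Hspd1 were Cox19, Rnps1, Eef1e1, Gtf2b and Pf4, at 0.0173 to 0.0476. Hspa1b had no gene as near outside the members, with Cyp4a12a, Atp6v0c-ps2, Cyp4a12b, Snora64 and Socs3 at 1.47 to 1.78. Of these, all but Socs3 were below 1 FPKM in Sham and WI and passed the filter only through IR. Atp6v0c-ps2 and Snora64 were listed at 0 in Sham and WI. Hspa1a was at 0.207 from Hspa1b, but reads that map to both genes are divided evenly between them. The values of these 2 genes are therefore not independent of each other. Cyp4a12a, a gene known to be male-biased in mouse liver, had 0.0792 FPKM in Sham, 0.216 in WI and 57.4 in IR. It is given as an example, and the part of sex in the values of the other neighbours was not tested.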

How the data were processed

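Liver mRNA of 3 libraries was analysed (Sham, WI and IR, 1 each). The authors mapped read pairs to mm10 with TopHat2 2.0.9 and deposited FPKM per gene from Cuffdiff (Cufflinks 2.0.2) with 95% bounds and a status. Counts are not used here, so depth per gene is unknown. The steps of 1603 low genes (above 0 and under 0.2 FPKM in all samples, bins of 0.1 in log2) gave a scale relative to Sham. It was about 1.15 for WI and 0.812 for IR. This scale reflects how FPKM was normalized and is not a read count. The aligned read pairs that the study lists also put WI above and IR below Sham, by smaller margins.

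Genes with at least 1 FPKM in at least 1 sample were kept, and changes were computed as log2(FPKM + 1) with a 2-fold threshold. No test was possible with 1 library per group. The genes and lists were chosen with earlier results of these data known. The genes named were the 10 members, list genes past 2-fold from Sham to WI or from WI to IR (at most 5 per list and comparison), 10 genes named in any case and the 5 nearest patterns to the median of the members, to Hspa1b and to Hspd1. Times, surgery and the number of mice came from the study's methods.

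Gene coordinates are those of the files in mm10, counted from 1. Promoter windows came from RefSeq (GRCm38.p6), and identity from coding sequences of an older annotation without its coordinates. Alternatives were pseudocounts of 0.1 and 0.01, other filters, 1.5-fold and 4-fold thresholds, TPM and median-ratio scaling and genes with status OK. Scripts were tested on simulated data. Python 3.11.15, numpy 2.4.6, pandas 2.3.3, matplotlib 3.10.9 and Biopython 1.88 were used.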

Additional observations from a re-analysis of the deposited data

How the results depend on the processing

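No member change turned its direction under any alternative. The number of members at least 2-fold higher in WI than in Sham was 2. It became 1 with FPKM of at least 1 in all samples, because Hspa1a at 0.425 in Sham then fails the filter. With a 4-fold threshold it became 0, because both changes of log2(FPKM + 1) lie below it. The ratios of FPKM without the added 1 were 9.15 for Hspa1a and 4.19 for Hspa1b. With pseudocounts of 0.1 and 0.01 the change of Hspa1a was 2.93 and 3.16 from Sham to WI and 8.62 and 8.89 from Sham to IR. Rescaling to a common sum moved the median of all genes to -0.41 from WI to IR and -0.42 from Sham to IR, and the members' median less that of all genes was 2.74 and 3.06 there (2.83 and 3.15 as reported). Calls over all genes, as higher and lower, were 81 and 119 from Sham to WI, 624 and 154 from WI to IR and 577 and 232 from Sham to IR. They became 135 and 247, 854 and 385, and 803 and 626 with a pseudocount of 0.1, and 163 and 284, 890 and 441, and 834 and 671 with 0.01. At 1.5-fold they were 339 and 461, 1333 and 799, and 1548 and 1024, and at 4-fold 7 and 17, 175 and 19, and 141 and 25. As TPM they were 322 and 833 from WI to IR and 269 and 1109 from Sham to IR. Leaving out a replicate was not possible with 1 library per group. No paired analysis was possible because each group has 1 library. The files hold no counts, so how precisely a low gene such as Hspa1a in Sham was measured is known only through the deposited bounds.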
